A study of Rattus norvegicus with 65 samples.

Results

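The genes described here are 10 enzymes of the methionine cycle, the transsulfuration pathway and polyamine synthesis, followed in rat liver after dosing with hepatocarcinogens. They are Mat1a, Mat2a, Gnmt, Ahcy, Bhmt, Cbs, Cth, Odc1, Amd1 and Sms. They were chosen by name, each with every probe set annotated to that symbol alone, which gave 13 probe sets for 10 of the 14217 genes that have such a probe set. Mat2a has 3 probe sets, Sms has 2 and the other genes have 1 each. Where a gene has several, the probe set with the highest mean stands for the gene, and all 10 genes passed the filter on dim genes in both fits.

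The samples are livers of 65 male Sprague-Dawley rats, aged 6 weeks, with 1 Affymetrix array per rat, in 22 groups of 3 rats, except DEN short, which has 2 because 1 failed array was left out. The genotoxic set holds 2-AAF (2-acetylaminofluorene), 3MeDAB (a methyl derivative of dimethylaminoazobenzene) and DEN (diethylnitrosamine) with a control group. The nongenotoxic set holds 1,4-Dioxane, Clofibrate and DL-Ethionine with a control group of its own. The test set holds DCP (a dichloropropanol), ME (methyleugenol), SN (sodium nitrite) and Urethane, and has no control group. Rats were dosed with every compound for a short and for a long exposure. The labels give 3 h and 72 h, whereas the treatment protocol describes repeated dosing and autopsy 24 h later for the long groups, so the groups are called short and long here. The titles name these rats only as controls and the descriptions as "vc", so whether they were dosed with vehicle is not settled here. The labels give no time for them. Each set's 3 control rats therefore serve both durations and are shared by all comparisons of that set. The doses of the training compounds were not used here. The range of signal differed between the 3 sets more than within them (lowest value on an array 3.33 to 3.41, 3.23 to 3.30 and 2.28 to 2.40 in the genotoxic, nongenotoxic and test sets), so levels were compared within a set only.

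In the methionine cycle, methionine adenosyltransferase joins methionine and ATP to form S-adenosylmethionine, the methyl donor of most methylation reactions. The product of methyl transfer, S-adenosylhomocysteine, is split to homocysteine, which is either methylated back to methionine or sent through transsulfuration to cysteine. Decarboxylated S-adenosylmethionine supplies the aminopropyl groups of spermidine and spermine. Adult hepatocytes use the MAT1A enzyme for the first step, whereas MAT2A is the form of most other tissues and of fetal and regenerating liver. Ethionine is the ethyl analogue of methionine: liver converts it to S-adenosylethionine, a poor donor that ties up adenosine and lowers hepatic ATP. The labelled tissue was checked on 9 hepatocyte markers, and all 9 were above the filter on dim genes in every group.

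The sequence just before the RefSeq transcription start (build GRCr8, 200 bases, ending 1 base before the start) is shown for 5 of the genes whose signal moved most or in opposite directions: both methionine adenosyltransferases, Bhmt, Cth and Odc1. Capitals mark the letters CACGTG (an E-box) or TATAA, where these occur on either strand.
Mat1a: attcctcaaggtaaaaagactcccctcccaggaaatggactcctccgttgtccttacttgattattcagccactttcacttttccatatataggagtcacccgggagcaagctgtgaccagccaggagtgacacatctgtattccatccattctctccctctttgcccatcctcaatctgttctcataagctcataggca
Mat2a: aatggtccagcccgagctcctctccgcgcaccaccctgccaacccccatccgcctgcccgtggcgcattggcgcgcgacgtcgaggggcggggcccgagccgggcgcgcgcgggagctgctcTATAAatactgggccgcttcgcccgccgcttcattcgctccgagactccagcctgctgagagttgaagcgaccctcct
Bhmt: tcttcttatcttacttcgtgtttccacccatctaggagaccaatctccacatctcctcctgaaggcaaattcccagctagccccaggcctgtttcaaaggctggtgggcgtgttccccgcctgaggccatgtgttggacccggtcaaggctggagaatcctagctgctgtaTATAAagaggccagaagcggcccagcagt
Cth: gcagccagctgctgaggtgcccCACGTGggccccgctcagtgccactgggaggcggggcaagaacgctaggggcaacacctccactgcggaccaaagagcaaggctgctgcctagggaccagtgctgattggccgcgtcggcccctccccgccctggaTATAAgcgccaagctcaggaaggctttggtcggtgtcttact
Odc1: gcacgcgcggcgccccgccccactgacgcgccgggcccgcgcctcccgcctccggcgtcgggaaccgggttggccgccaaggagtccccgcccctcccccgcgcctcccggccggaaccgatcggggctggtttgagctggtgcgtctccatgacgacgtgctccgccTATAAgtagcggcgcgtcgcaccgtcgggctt
These windows lie at chr16:17016968-17017167 (plus strand), chr4:106053613-106053812 (minus strand), chr2:26614430-26614629 (minus strand), chr2:249661067-249661266 (minus strand) and chr6:46058465-46058664 (plus strand). All 10 genes matched an entry among 33469 promoters of 300 bases (250 before and 50 after the start). CACGTG was in 1 of the 10 (Cth) against 6.42% of all promoters, and TGATGNAA, the core letters of the amino acid response element, in 0 of 10 against 3.98%. TATAA on either strand, a motif picked after the sequences had been read, was in 6 of 10 against 26.2%. Counted on the gene's own strand and only from -40 to -20, TATAA was in Bhmt, Odc1 and Amd1 and in 2.48% of all promoters. The Mat1a window holds none of the letters searched, and the Mat2a window holds TATAA at -78. A match is a description of the sequence only.

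DL-Ethionine long was the group in which every one of the 10 genes differed from the control (limma, Benjamini-Hochberg adjusted p under 0.05, over 11007 tested genes). Mat2a, Ahcy, Cth, Odc1 and Amd1 were higher, and Mat1a, Gnmt, Bhmt, Cbs and Sms were lower. Liver RNA changed widely in this group: 53.1% of all tested genes passed the same test (30.0% higher and 23.0% lower), and that is the background to read the count against. The median difference of the 10 genes was -0.07 and that of all tested genes 0.03 on the log2 scale, so the genes did not shift together in a single direction. Where groups are said not to overlap, here and below, this describes the rats' values and is no test. The share of all tested genes without overlap is not given, so these statements do not set the 10 genes apart from other genes. In whole liver, fewer cells of a type and less RNA per cell cannot be told apart.

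**Figure D1:**
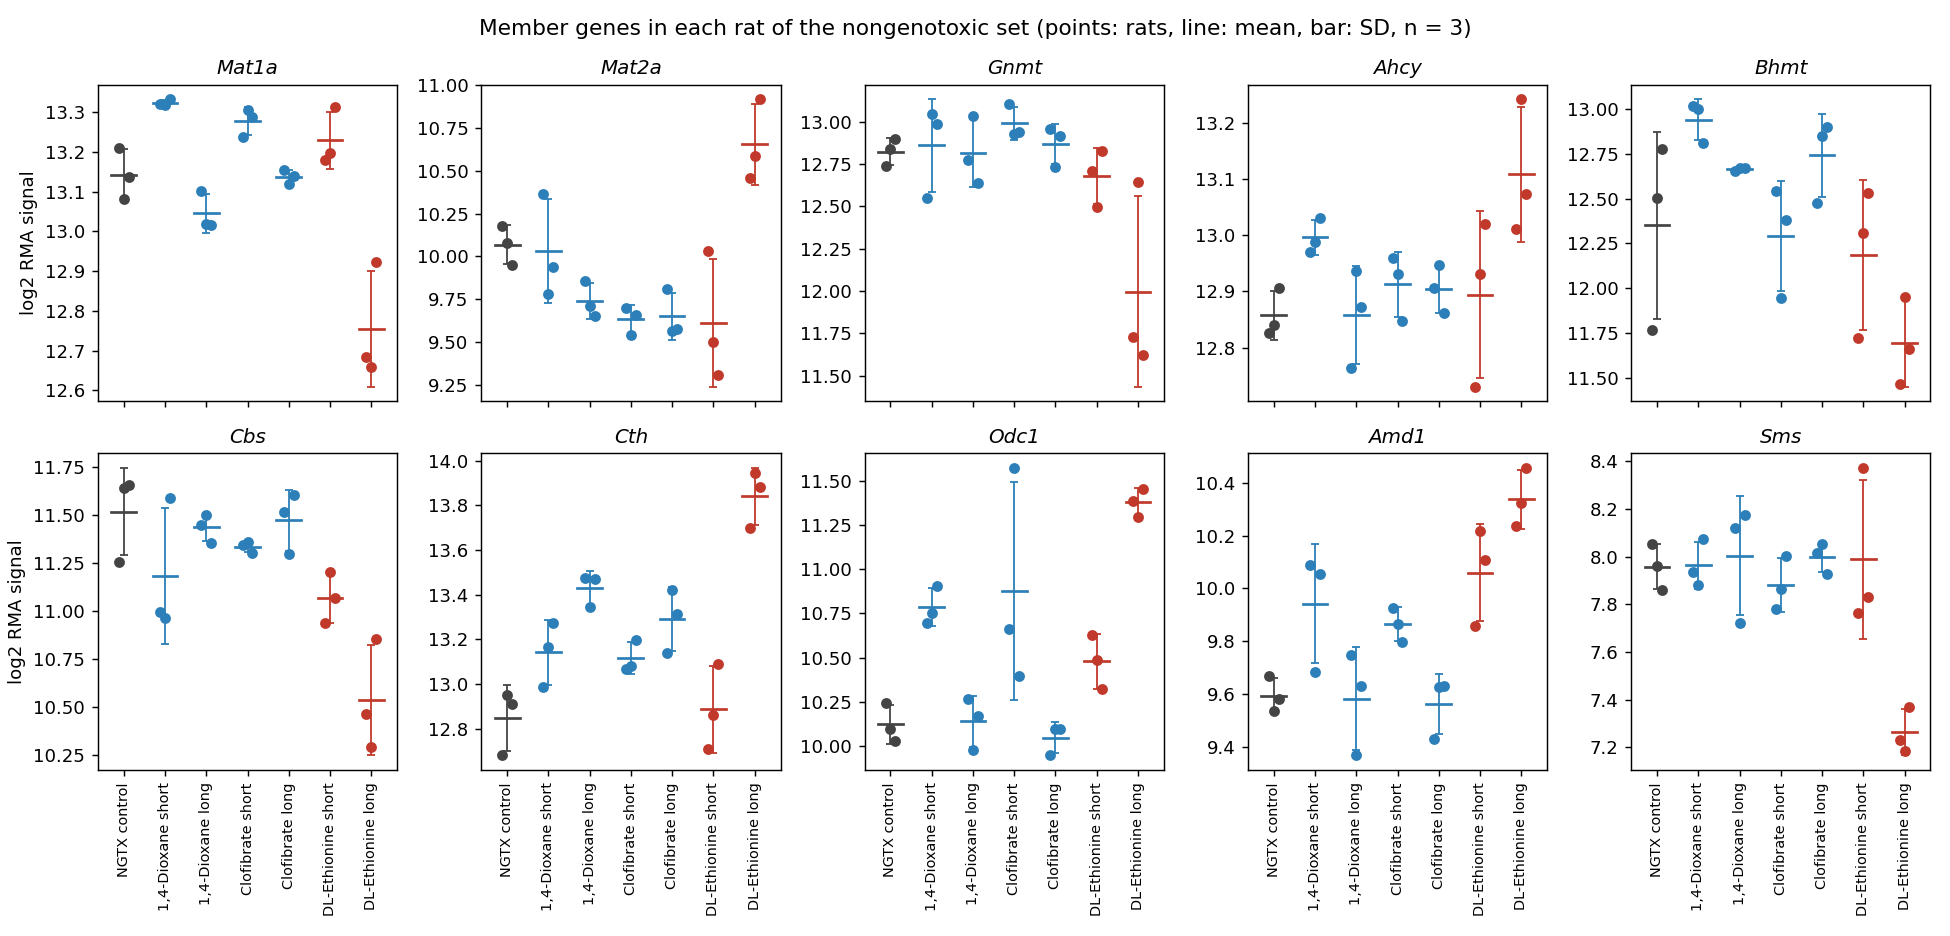
Log2 RMA signal (vertical axis, a separate scale for each gene) of the 10 genes in each rat of the nongenotoxic set (horizontal axis: control, 1,4-Dioxane, Clofibrate and DL-Ethionine, short and long), with the mean as a line and the SD as a bar (n = 3). DL-Ethionine long lies above all control rats for Cth (13.70 to 13.94), Odc1 (11.30 to 11.46) and Amd1 (10.23 to 10.46), and below them for Sms (7.18 to 7.37).

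The 2 methionine adenosyltransferases moved in opposite directions. Mat1a, the adult liver enzyme, read 12.68, 12.66 and 12.92 in the 3 DL-Ethionine long rats and 13.21, 13.08 and 13.14 in the controls. All treated rats were below all controls, and the difference was -0.39 ± 0.12 (SE; 1.31-fold lower, adjusted p = 0.00534). Mat2a, the form of dividing and non-hepatic cells, read 10.46, 10.59 and 10.92 against 10.18, 10.08 and 9.95. Here all treated rats were above all controls, by 0.59 ± 0.18 (adjusted p = 0.00593). Rat 3 had the highest Mat2a and also the highest Mat1a signal of the treated rats, and without it the Mat2a difference was 0.45 with an adjusted p of 0.0526. The second Mat2a probe set is dim (5.04 to 6.63 over all arrays) and gave 0.38 ± 0.19 with an adjusted p of 0.101, and the other, at 3.76 to 5.00, was below the filter and was not tested.

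Among the enzymes that use and clear S-adenosylmethionine, the directions also split. Gnmt, the abundant liver glycine N-methyltransferase that consumes excess S-adenosylmethionine, read 11.73, 12.64 and 11.62 after DL-Ethionine and 12.74, 12.84 and 12.90 in controls. Its difference was -0.83 ± 0.23 (1.77-fold lower, adjusted p = 0.00358) and no treated rat reached the controls, but rat 2 stood close to them while the other rats lay well below. Ahcy, which splits S-adenosylhomocysteine, read 13.01, 13.24 and 13.07 against 12.83, 12.84 and 12.91. Its rise was the smallest of the 10 (0.25 ± 0.08, 1.19-fold, adjusted p = 0.0114), without overlap between the groups. Without rat 2 the difference was 0.18 with an adjusted p of 0.0902, and the call was also lost in a fit of the compared groups alone.

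Bhmt, which remethylates homocysteine with betaine in liver, read 11.47, 11.95 and 11.66 against 11.77, 12.50 and 12.78. One control rat lay within the treated range, and the difference of -0.66 ± 0.28 (1.58-fold lower) was the least secure of the 10, with an adjusted p of 0.0465. The call was lost without DL-Ethionine long rat 1 (adjusted p = 0.157) or 3 (0.0946), without control rat 2 (0.130) or 3 (0.236), and with no filter (0.0561), with quantile normalization of all columns (0.0580) or with every probe set tested on its own (0.0521).

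The 2 transsulfuration enzymes went opposite ways by nearly the same amount. Cbs, which condenses homocysteine with serine to cystathionine, read 10.47, 10.29 and 10.85 against 11.25, 11.64 and 11.65 (-0.98 ± 0.20, 1.97-fold lower, adjusted p = 9.27e-05). Cth, which cleaves cystathionine to cysteine, read 13.70, 13.94 and 13.88 against 12.68, 12.95 and 12.91 (0.99 ± 0.15, 1.99-fold higher, adjusted p = 2.38e-06). Neither gene's treated rats overlapped the controls, and neither call was lost under any alternative run.

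Of the polyamine enzymes among the 10, Odc1 and Amd1 were higher and Sms, the last enzyme, was lower. Agmat, another putrescine-forming enzyme that is not among the 10, was lower (-3.27) and is described further below. Odc1, ornithine decarboxylase, which makes putrescine, read 11.38, 11.30 and 11.46 against 10.24, 10.10 and 10.03, the largest difference of the 10 (1.26 ± 0.20, 2.39-fold higher, adjusted p = 2.95e-06). Amd1, S-adenosylmethionine decarboxylase, which makes the aminopropyl donor, read 10.23, 10.32 and 10.46 against 9.67, 9.53 and 9.58 (0.74 ± 0.14, 1.67-fold higher, adjusted p = 3.52e-05). Sms, spermine synthase, read 7.23, 7.18 and 7.37 against 8.05, 7.96 and 7.86 (-0.70 ± 0.14, 1.62-fold lower, adjusted p = 6.42e-05). The groups did not overlap for any of these 3 genes. The second Sms probe set read 5.47 on average after DL-Ethionine and 5.60 in controls, under the filter, and was not tested.

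Markers of other cell types moved in the same group. Of the macrophage list 6 of 6 tested genes (7 listed) were higher, with a median of 1.56, and the list's summed level was 14.23 to 14.53 against 12.66 to 12.99 in controls (log2). Endothelial markers were higher in 4 of 4 tested (5 listed), with summed levels of 12.79 to 12.84 against 11.38 to 11.80. Hepatocyte markers summed to 17.06 to 17.11 against 17.03 to 17.09, with 2 of 9 tested genes higher and 1 lower. Such a sum is led by its brightest genes. Alb lay near the top of the arrays' scale (14.65 to 15.79 over the training arrays), so hepatocyte sums can hide a change in hepatocyte share. Of the tested stellate and fibroblast markers 1 of 6 was higher and 1 lower, and of the bile duct markers 1 of 2 each way. Of the leukocyte markers 1 of 3 was higher and of the erythroid markers 1 of 3 lower. Of the 4 listed pancreas genes only Cela1 was tested, and it was lower by a difference of -3.49. Cpa1, Pnlip and Prss1 stayed below the filter in every array (up to 5.13, 5.31 and 5.54). Cela1 was therefore not read as a sign of pancreas tissue. Krt7 of the bile duct list also stayed below the filter in every array (up to 5.65). The 3' minus 5' difference of the GAPDH control probe sets, a sign of RNA quality, was 0.59 to 0.86 against 0.50 to 0.91 in controls and so overlapped. The part of these markers in the 10 genes' values was not tested.

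After the short exposure to DL-Ethionine, little of this was seen. Amd1 was the 1 gene of the 10 that passed the test, where 5.15% of all tested genes did. It read 9.86, 10.22 and 10.11, above all controls, a rise of 0.47 ± 0.14 (1.38-fold, adjusted p = 0.0434). This call was lost without DL-Ethionine short rat 2 (adjusted p = 0.230) or 3 (0.187), without control rat 1 (0.0565), 2 (0.144) or 3 (0.141), with no filter (0.0513) and in a fit of the compared groups alone (0.128). Mat2a read 10.03, 9.50 and 9.31, a difference of -0.46 ± 0.18 that did not pass (adjusted p = 0.137), although without rat 1 it did. Cbs read 10.94, 11.20 and 11.07, below all controls but not called (-0.45 ± 0.20, adjusted p = 0.202). Odc1 read 10.63, 10.48 and 10.32, above all controls and not called (0.36 ± 0.20, adjusted p = 0.343). The differences of the other 6 genes lay between -0.16 and 0.09.

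A list of 8 clock genes was examined because the controls' time of day is not given. In DL-Ethionine short 6 of the 8 were called, against 5.15% of all tested genes. Npas2 (-2.29, adjusted p = 0.00192), Bmal1 (-1.81, 0.0396) and Clock (-0.78, 0.00910) were lower and Per3 (0.95, 0.0253), Nr1d2 (0.82, 0.0408) and Tef (0.75, 0.0374) higher, whereas Dbp (2.60, 0.0503) and Nr1d1 (0.92, 0.150) did not pass. In DL-Ethionine long 4 of the 8 were called, near the 53.1% of all tested genes in that comparison. The part of the time of day in the short groups' values was not tested.

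The long and short DL-Ethionine groups differed for 8 of the 10 genes, where 51.6% of all tested genes did. Of the 8 clock genes 8 were called between these groups as well, and the part of the time of day was not tested. Mat2a was higher in the long group by 1.04 ± 0.18 (adjusted p = 9.63e-06), Cth by 0.95 ± 0.15 (4.53e-06) and Odc1 by 0.90 ± 0.20 (0.00029). Sms was lower by -0.73 ± 0.14 (adjusted p = 3.67e-05), with no overlap between the durations. Mat1a (-0.48), Gnmt (-0.68) and Cbs (-0.53) were lower and Ahcy (0.21) higher in the long group. Bhmt (-0.49, adjusted p = 0.139) and Amd1 (0.28, adjusted p = 0.0944) did not pass. The calls of Gnmt, Ahcy and Cbs were lost on leaving out single rats: Gnmt without long rat 1 or 3 or short rat 3 (adjusted p of 0.0588 to 0.113), Ahcy without long rat 2 or short rat 1 (0.180 and 0.221) and Cbs without long rat 1 or 2 or short rat 2 (0.0680 to 0.121). In a fit of the compared groups alone the Gnmt (0.0656) and Ahcy (0.151) calls were lost too.

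Against the other 2 nongenotoxic compounds at the same duration, which needs no control group, all 10 genes again differed after the long exposure (61.1% of all tested genes did). Mat2a stood further from these compounds (0.96 ± 0.15) than from the control: it read 9.56 to 9.85 after 1,4-Dioxane long and Clofibrate long and 9.95 to 10.18 in the control. Cth stood less far from them (0.48 ± 0.13): 1,4-Dioxane long read 13.34 to 13.47 and Clofibrate long 13.14 to 13.42. The other differences were -0.34 for Mat1a, -0.85 for Gnmt, 0.23 for Ahcy, -1.01 for Bhmt, -0.92 for Cbs, 1.28 for Odc1, 0.76 for Amd1 and -0.74 for Sms. The Ahcy call was lost without DL-Ethionine long rat 2 (adjusted p = 0.0895). At the short duration none of the 10 passed (1.75% of all tested genes did in limma), with differences of -0.43 to 0.16.

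After the long exposure to 1,4-Dioxane or Clofibrate none of the 10 genes passed in limma, where 0.164% and 0.136% of all tested genes did. Cth had the largest differences there, 0.58 after 1,4-Dioxane and 0.44 after Clofibrate, with all treated rats above all controls but no call; the 1,4-Dioxane value passed with only the set's own arrays in the fit (adjusted p = 0.0275). Mat2a lay below all controls after Clofibrate long (9.56 to 9.81 against 9.95 to 10.18; -0.42) without a call. After the short exposure Odc1 was called for both. It read 10.70, 10.75 and 10.90 after 1,4-Dioxane against 10.03 to 10.24 in controls (0.66 ± 0.20, 1.58-fold, adjusted p = 0.0436), where 5.50% of tested genes passed. After Clofibrate it read 10.66, 11.57 and 10.39 (0.75 ± 0.20, 1.69-fold, adjusted p = 0.0338), where 2.90% passed. The Clofibrate value turned on rat 2, and without it the difference was 0.40 with an adjusted p of 0.341. That call was also lost without control rat 2 (0.118) or 3 (0.148) and in a fit of the compared groups alone (0.206). The 1,4-Dioxane call was lost without any of its own rats (adjusted p of 0.0871 to 0.121) and without any of the 3 control rats (0.0523 to 0.164). Of the 8 clock genes 3 were called in 1,4-Dioxane short, Npas2 (-1.60, adjusted p = 0.0202), Clock (-0.87, 0.00402) and Tef (0.78, 0.0284), and 2 in Clofibrate short, Npas2 (-1.75, 0.0196) and Tef (0.89, 0.0212). In 1,4-Dioxane short the GAPDH 3' minus 5' difference was 0.377 to 0.496 against 0.503 to 0.908 in controls and that of actin 2.18 to 2.75 against 2.96 to 3.19, with no overlap for either. Actin also lay below the controls in 1,4-Dioxane long (2.68 to 2.94) and Clofibrate long (2.62 to 2.90). The part of the clock genes and of RNA quality in these values was not tested.

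**Figure D2:**
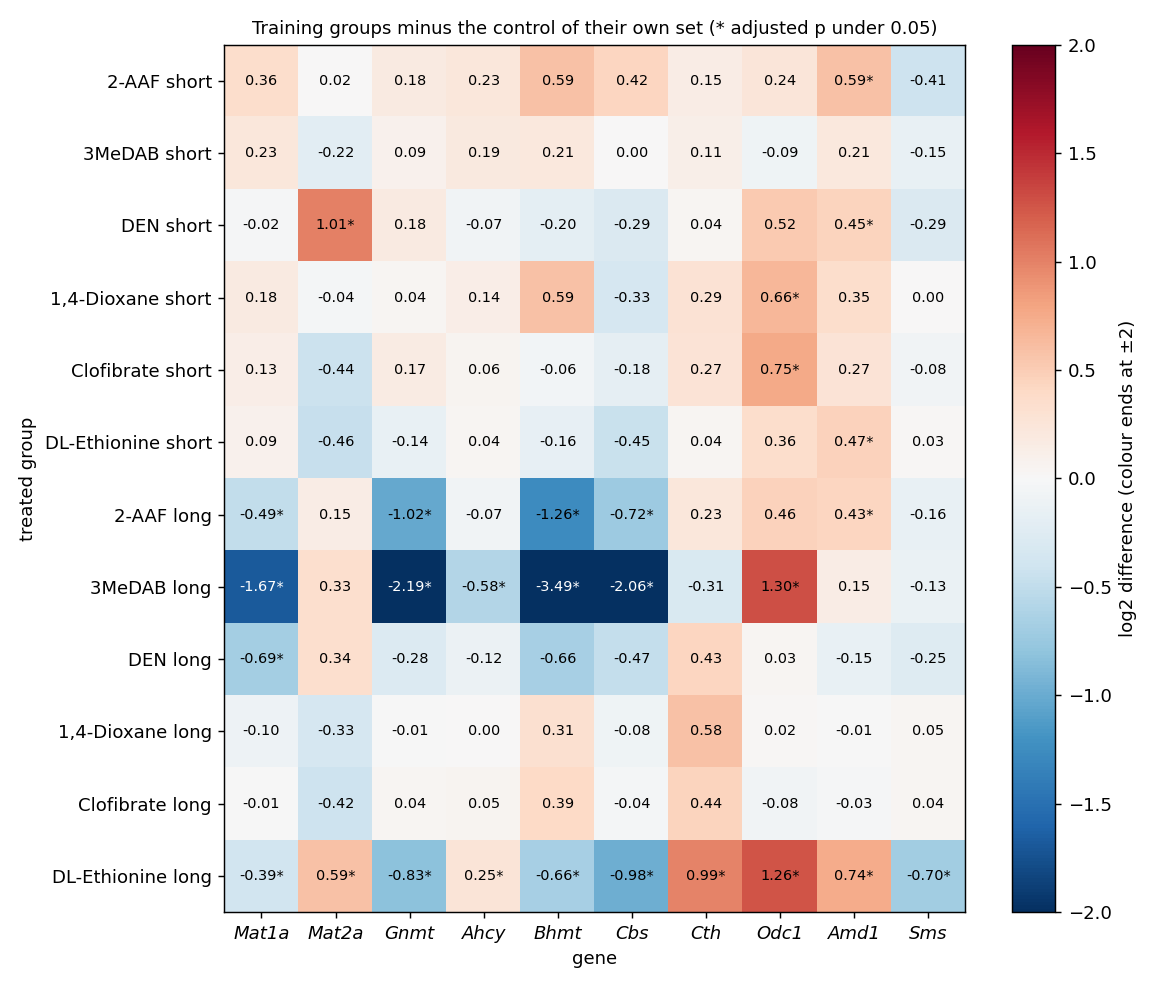
Log2 difference from the control of the same set (colour, ending at ±2, with the value printed in each cell and a star where the adjusted p was under 0.05) for the 10 genes (columns) in the 12 treated training groups (rows). The DL-Ethionine long row has 10 starred cells and 3MeDAB long has 6, among them 3 cells past the end of the colour scale, Gnmt at -2.19, Bhmt at -3.49 and Cbs at -2.06.

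In the genotoxic set, 3MeDAB long lowered the liver forms of the cycle more than any other training group did. Bhmt read 9.49, 8.59 and 8.49 against 12.04, 12.44 and 12.56 in the genotoxic-set controls (-3.49 ± 0.28, 11.2-fold lower, adjusted p = 9.48e-12). Gnmt read 11.27, 10.29 and 10.06 against 12.66 to 12.80 (-2.19 ± 0.23, 4.56-fold lower, adjusted p = 4.08e-09). Cbs read 9.49, 9.54 and 8.72 against 11.23 to 11.47 (-2.06 ± 0.20, 4.17-fold lower). The fall was therefore seen in every 3MeDAB long rat for each of these genes. Mat1a read 11.55, 11.45 and 10.82 against 12.92 to 12.98 (-1.67 ± 0.12, 3.19-fold lower, adjusted p = 3.86e-13), and Ahcy 12.14, 12.12 and 11.94 against 12.60 to 12.71 (-0.58 ± 0.08). Odc1 was the 1 gene that rose, to 11.34, 11.67 and 11.51 from 10.18 to 10.23 (1.30 ± 0.20, 2.46-fold, adjusted p = 2.02e-06). Mat2a (0.33), Amd1 (0.15), Sms (-0.13) and Cth (-0.31) did not pass. Of all tested genes 53.6% passed in this comparison, 35.9% higher and 17.7% lower, against 1 and 5 of the 10.

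Other markers moved with 3MeDAB long as well. Macrophage markers were higher in 4 of 6 tested (summed level 13.55 to 13.89 against 13.19 to 13.44). Hepatocyte markers were higher in 3 and lower in 2 of 9, with differences of -0.42 to 1.01, and summed to 16.88 to 17.02 against 16.93 to 17.00. Stellate and fibroblast markers were higher in 3 and lower in 2 of 6 (-0.87 to 1.86), bile duct markers higher in 1 of 2, erythroid markers higher in 1 of 3, leukocyte markers 1 of 3 each way, and endothelial markers 0 of 4 either way. Cela1, the 1 tested gene of the pancreas list, was lower by a difference of -2.16. The GAPDH 3' minus 5' difference was 0.24 to 0.39 against 0.44 to 0.63 in the controls and did not overlap. Their part in the result was not tested.

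2-AAF long showed the same liver genes at smaller size. Gnmt read 11.71, 12.00 and 11.42 (-1.02 ± 0.23, 2.03-fold lower, adjusted p = 0.00127) and Bhmt 10.60, 10.90 and 11.75 (-1.26 ± 0.28, 2.40-fold lower, adjusted p = 0.000828). Cbs (-0.72 ± 0.20) and Mat1a (-0.49 ± 0.12) were lower too, with no overlap with the controls for any of the 4. Amd1 was higher at 9.82, 9.59 and 9.70 against 9.19 to 9.45 (0.43 ± 0.14, adjusted p = 0.0173), a call lost without 2-AAF long rat 1 (0.0594), without control rat 2 (0.0700) or 3 (0.0702) and in a fit of the compared groups alone (0.0677). Odc1 ranged widely, from 10.18 to 11.13, and was not called (0.46), although it was without rat 1. The 5 calls stand against 32.1% of all tested genes. In this group macrophage markers were lower in 4 of 6 tested, with a summed level of 12.48 to 12.96 against 13.19 to 13.44. Stellate and fibroblast markers were higher in 3 and lower in 2 of 6 (-1.02 to 1.62), hepatocyte markers lower in 2 of 9, bile duct markers 1 of 2 each way, leukocyte and erythroid markers lower in 1 of 3 each, Cela1 lower (-0.76) and endothelial markers 0 of 4 either way. The GAPDH 3' minus 5' difference was 0.19 to 0.95 against 0.44 to 0.63 in the controls. That of actin was 2.70 to 3.86 against 2.98 to 3.41. Both overlapped the controls, and their SDs (0.41 and 0.65) were the largest of any group. The part of these markers and of RNA quality in the result was not tested.

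DEN long gave 1 call, Mat1a, at 12.28, 12.31 and 12.20 (-0.69 ± 0.12, 1.61-fold lower, adjusted p = 5.70e-05), where 16.7% of tested genes passed. Bhmt (-0.66), Cbs (-0.47) and Cth (0.43, adjusted p = 0.0550) were not called. In DEN long macrophage markers were higher in 4 of 6 tested (summed level 13.77 to 13.96 against 13.19 to 13.44) and stellate and fibroblast markers in 3 of 6 (up to 2.25). Leukocyte markers were called 1 of 3 each way and Cela1 was lower (-2.03), while no hepatocyte, endothelial, bile duct or erythroid marker was called in limma. Their part was not tested. DEN short had 2 calls, where 17.6% of tested genes passed. Mat2a read 10.84 and 11.08 in its 2 rats against 9.93 to 9.98 in controls (1.01 ± 0.20, 2.01-fold higher, adjusted p = 0.000455), the highest Mat2a of the 7 genotoxic-set groups. Amd1 read 9.71 and 9.73 (0.45 ± 0.16, adjusted p = 0.0430), a call lost without either DEN short rat (0.148 and 0.202) or without control rat 2 (0.121) or 3 (0.120), with no filter (0.0511) and with only the set's own arrays in the fit (0.0967). The GAPDH 3' minus 5' difference of these 2 rats, 0.74 to 0.75, was above the controls' 0.44 to 0.63, and its part was not tested. 2-AAF short gave 1 call where 8.49% of tested genes passed: Amd1 at 10.23, 9.39 and 9.98 (0.59 ± 0.14, 1.51-fold higher, adjusted p = 0.00689), with rat 2 within the controls' range. That call was lost without rat 1 (0.0956) or 3 (0.0508) and in a fit of the compared groups alone (0.151). 3MeDAB short gave none, where 0.918% of all tested genes passed in limma, with differences of -0.22 to 0.23.

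Over the 12 comparisons with a control, 28 of 120 gene-by-group values were called, 13 higher and 15 lower, against 16.4% over all tested genes (9.14% higher and 7.22% lower). Mat1a, Gnmt, Bhmt and Cbs were called lower in 4, 3, 3 and 3 groups and, at these settings, higher in none. Odc1 was called higher in 4 groups, Amd1 in 5 and Mat2a in 2, and none of these 3 was called lower in any. Cth and Sms were each called in 1 group, DL-Ethionine long. These counts are those of the chosen settings, and some values near the threshold passed under others. Cth, at 0.43 (adjusted p = 0.0550) in DEN long, was called under 5 alternatives, in 3MeDAB long without 3MeDAB long rat 1 (-0.53) or control rat 1 (-0.43), and in 1,4-Dioxane long with only the set's own arrays. Sms, at -0.41 (adjusted p = 0.0574) in 2-AAF short, was called under 3, and under 1 each in 3MeDAB long and DEN short. Mat1a, at 0.36 (adjusted p = 0.0504) in 2-AAF short, was called higher under 4. Comparisons of a set share their controls, so these counts are not independent of each other.

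Within each training set, the other compounds were also set against the mean of the 2 compounds beside them, without the control. After the long exposure 3MeDAB differed for 7 of the 10 genes (51.2% of all tested genes), with Bhmt (-2.52), Gnmt (-1.54), Cbs (-1.46), Mat1a (-1.09), Cth (-0.64) and Ahcy (-0.49) lower and Odc1 (1.05) higher. Mat2a was not called there (0.08, adjusted p = 0.666 in limma). With every probe set tested on its own, its dim second probe set was called higher (0.50, adjusted p = 0.0131), so the Mat2a probe sets disagreed. DEN long differed for 8 (41.8%), with Bhmt (1.71), Gnmt (1.32), Cbs (0.92), Cth (0.46), Mat1a (0.40) and Ahcy (0.21) higher and Odc1 (-0.84) and Amd1 (-0.44) lower. 2-AAF long differed for 5 (36.1%), with Bhmt (0.81), Mat1a (0.69), Cbs (0.54), Amd1 (0.43) and Ahcy (0.28) higher. The signs of DEN and 2-AAF here are relative to a mean that holds 3MeDAB long, the group with the lowest Bhmt, Gnmt, Cbs and Mat1a. The Bhmt call of 2-AAF was lost without 2-AAF long rat 3 (0.48, adjusted p = 0.140), its Cbs call without rat 1 (0.0901), and the Ahcy call of DEN without DEN long rat 1 (0.0617) or 2 (0.0819). In a fit of the compared groups alone the calls of Bhmt and Cbs in 2-AAF long (0.0586 and 0.0725) and of Mat1a, Ahcy and Cth in DEN long (0.0604 to 0.0926) were lost.

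1,4-Dioxane long differed for 4 genes in the same way (31.2%): Odc1 (-0.57), Mat2a (-0.41) and Amd1 (-0.37) were lower and Sms (0.37) higher. Clofibrate long differed for 6 (31.4%): Odc1 (-0.71), Mat2a (-0.55), Amd1 (-0.40) and Cth (-0.34) were lower and Cbs (0.49) and Sms (0.36) higher. DL-Ethionine long is in the mean that both were set against. Leaving out 1,4-Dioxane long rat 2 removed its Mat2a, Odc1 and Amd1 calls (0.0705 to 0.174), leaving out rat 1 or 3 its Mat2a and Sms calls (0.0515 to 0.142), and leaving out Clofibrate long rat 1 or DL-Ethionine long rat 3 its Mat2a call (0.0808 and 0.0961). Without Clofibrate long rat 1 the Cbs, Cth, Amd1 and Sms calls of Clofibrate were lost (0.0568 to 0.218). They were lost for Cth and Sms also without rat 2 (0.0512 and 0.0707), for Cbs and Cth without rat 3 (0.130 and 0.104), for Cth without 1,4-Dioxane long rat 1 or 3 (0.0781 and 0.0748) for Sms without 1,4-Dioxane long rat 2 (0.0530), for Cbs without DL-Ethionine long rat 1 or 2 (0.0501 and 0.0651) and for Cth without DL-Ethionine long rat 2 or 3 (0.0850 and 0.0748). With the mean of all probe sets of a gene, Mat2a and Sms were called in neither group (0.0568 to 0.0940).

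After the short exposure these comparisons gave 3 calls. Mat2a was higher in DEN short by 1.11 and Ahcy lower by -0.28 (16.5% of all tested genes called), and Mat2a was lower in 3MeDAB short by -0.73 (7.51%). The Ahcy call was lost without either DEN short rat (0.278 and 0.0588), with only the set's own arrays (0.0709) or the compared groups (0.185) in the fit, and the Mat2a call of 3MeDAB without 3MeDAB short rat 2 (-0.48, adjusted p = 0.0667) and in a fit of the compared groups alone (0.0947). None of the 10 passed in limma for 2-AAF, 1,4-Dioxane or Clofibrate short, where 5.24%, 0.445% and 0% of all tested genes did. Over the 20 comparisons of a compound with the others of its set, the test set included, 59 of 200 values were called, against 21.5% over all tested genes.

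DL-Ethionine long and 3MeDAB long, each against its own control, differed from each other for 8 of the 10 genes, where 34.4% of all tested genes did. This comparison and the next were chosen after the data were seen, and they set effects measured in separately scaled sets side by side. Bhmt was less lowered by DL-Ethionine, by 2.83 ± 0.39 (adjusted p = 1.43e-06), and Gnmt (1.36 ± 0.33), Mat1a (1.29 ± 0.16) and Cbs (1.08 ± 0.28) likewise. Cth (1.30 ± 0.22, adjusted p = 2.21e-05) and Ahcy (0.83 ± 0.12) were higher after DL-Ethionine relative to 3MeDAB, as was Amd1 (0.60 ± 0.20), and Sms was lower (-0.57 ± 0.19). Odc1 differed by -0.04 ± 0.28 (adjusted p = 0.930) and Mat2a by 0.26 ± 0.25 (0.457), which does not show that the effects were equal. The Amd1 call was lost without genotoxic-set control rat 1 (adjusted p = 0.0566) and the Sms call without 3MeDAB long rat 2 (0.0547) or with quantile normalization (0.0653).

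Set against 2-AAF long in the same way, DL-Ethionine long differed for 4 genes (38.3% of all tested genes did). Cth was higher by 0.76 ± 0.22 (adjusted p = 0.0062), Odc1 by 0.80 ± 0.28 (0.0238) and Ahcy by 0.32 ± 0.12 (0.0292), and Sms was lower by -0.54 ± 0.19 (0.0256). Cth was the 1 call of these 4 that no left-out rat removed. Ahcy lost it without any of 2-AAF long rat 1, DL-Ethionine long rat 2, genotoxic-set control rat 2 or nongenotoxic-set control rat 1 or 2 (adjusted p of 0.0531 to 0.0992), and in a fit of the compared groups alone (0.0823). Odc1 lost it without 2-AAF long rat 1 (0.106) or nongenotoxic-set control rat 3 (0.0511), and Sms without 2-AAF long rat 1, DL-Ethionine long rat 2, genotoxic-set control rat 3 or nongenotoxic-set control rat 1 (0.0509 to 0.0626) and with the mean of all probe sets of a gene (0.0855). The differences of Mat1a (0.10), Gnmt (0.19), Bhmt (0.61), Cbs (-0.26), Mat2a (0.43) and Amd1 (0.31) did not pass.

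**Figure D3:**
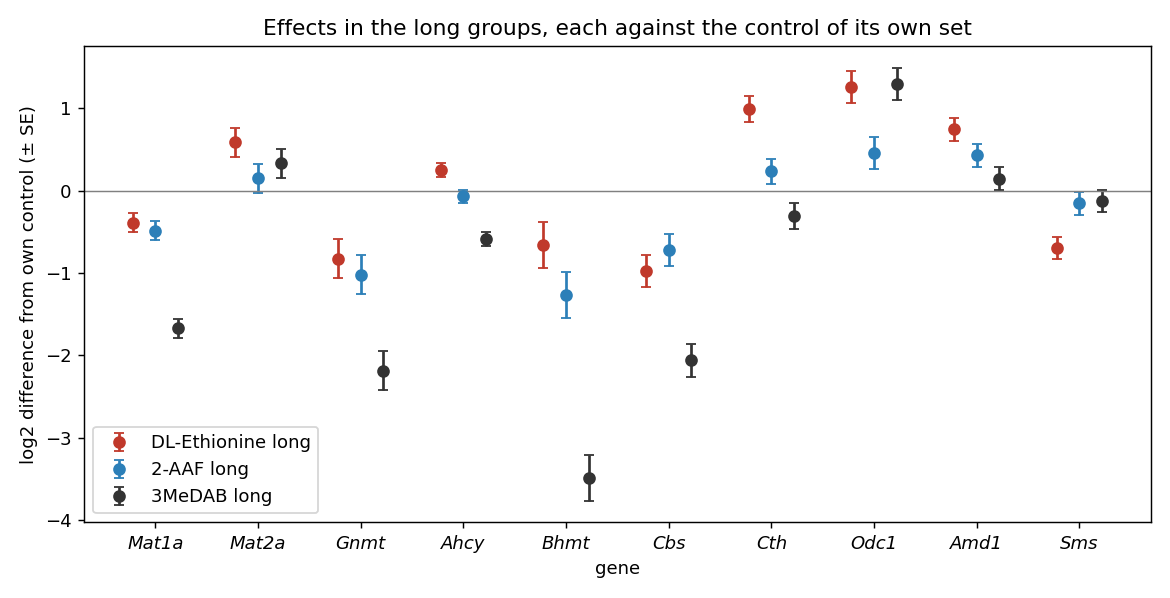
Log2 difference from the own control (vertical axis, points with ± SE) for the 10 genes (horizontal axis) in DL-Ethionine long, 2-AAF long and 3MeDAB long. DL-Ethionine long lies below the others for Sms (-0.70) and above them for Cth (0.99), DL-Ethionine and 3MeDAB long coincide for Odc1 (1.26 and 1.30), and 3MeDAB long lies far below the others for Bhmt (-3.49).

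Around these 10 enzymes, a list of 45 further genes of the pathways was examined, of which 42 were tested. In DL-Ethionine long 11 were higher and 20 lower, 73.8% against 53.1% of all tested genes. Of the remethylation and folate genes 1 of 10 was higher and 6 lower (median -0.50), of the genes that use S-adenosylmethionine 1 and 6 of 8 (-0.26), and of the methionine salvage genes 1 and 3 of 5 (-0.61). Genes downstream in sulfur metabolism split 3 and 3 of 8 (0.07), and polyamine genes were higher in 5 and lower in 2 of 11 (0.13). In 3MeDAB long 12 of the 42 were higher and 17 lower, in 2-AAF long 11 and 11 (16.0% and 16.1% of all tested genes), and in DL-Ethionine short 2 were higher, Sardh (0.63) and Mthfd1 (0.51), enzymes of the sarcosine and folate one-carbon supply. The 3MeDAB long count is 69.0% of the list against 53.6% of all tested genes. The DL-Ethionine short count is 4.76% against 5.15%, near the background.

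The largest changes of this list after DL-Ethionine long exceeded those of the 10 enzymes. Agmat, agmatinase, which forms putrescine from agmatine, read 8.44, 8.78 and 8.49 against 11.81, 11.84 and 11.86 (-3.27 ± 0.12, adjusted p = 2.75e-20). Cdo1, which oxidises cysteine, and Csad, which decarboxylates the product of Cdo1 toward taurine, fell by 2.07 and 2.47 on the log2 scale. Cdo1 read 11.57, 11.93 and 11.62 against 13.69 to 13.85. Mpst, which handles mercaptopyruvate from cysteine, rose from 10.94 to 11.06 in controls to 12.21 to 12.34 (1.27 ± 0.10). In the same rats Cth and Mpst were thus higher while Cdo1 and Csad were lower. Chdh, which oxidises choline toward betaine, the substrate of Bhmt, differed by -2.03 ± 0.15, Bhmt2 by -1.72 ± 0.14 and Gamt, a methyltransferase of creatine synthesis, by -1.47 ± 0.13. Inmt, an indole N-methyltransferase, read 6.95, 6.52 and 5.77 against 5.74, 10.40 and 10.73. Control rat 1 lay below every treated rat, so the groups overlapped although the mean difference of -2.54 ± 0.95 passed (adjusted p = 0.0254). Agmat differed by -0.99 in 3MeDAB long and by -0.02 in 2-AAF long, and Csad by -2.37 and -0.85.

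In the test set each compound was compared with the mean of the other 3 at the same duration, over 9544 tested genes. DCP stood apart from the others for 7 genes after the short exposure, where 44.2% of all tested genes did. Cbs read 10.40, 10.91 and 10.71 against 11.14 to 11.48 in the other compounds (-0.64 ± 0.10, 1.56-fold lower, adjusted p = 3.87e-05), and Bhmt 12.07, 12.37 and 12.09 against 12.46 to 13.01 (-0.66 ± 0.14). Mat1a (-0.28 ± 0.07) and Gnmt (-0.38 ± 0.09) were lower too, with all DCP rats below all others for these 4 genes. Ahcy (-0.17) and Odc1 (-0.35) were lower and Amd1 (0.52 ± 0.10) higher, with overlap. The Ahcy call was lost without DCP short rat 1 (adjusted p = 0.105) or 3 (0.0870) and the Odc1 call without rat 1 (0.0644). In a fit of the compared groups alone both were lost (0.0562 and 0.0505), and with quantile normalization of all columns that of Ahcy (0.0509). The hepatocyte list's summed level was 16.66 to 16.76 in DCP short and at least 16.77 in every other short rat. The other marker lists overlapped, and the part of the markers in these values was not tested.

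After the long exposure DCP differed for 6 genes, where 39.2% of all tested genes did, and only some of the directions were those of the short group. Cbs stayed lower at 10.69, 10.40 and 10.57 against 11.01 to 11.29 (-0.62 ± 0.10, adjusted p = 7.36e-05) and Gnmt was lower by -0.26. Odc1 was higher at 10.20, 10.03 and 10.12 against 9.45 to 9.83 (0.45 ± 0.10), and Amd1 lower at 8.81, 8.91 and 8.92 against 9.23 to 9.69 (-0.59 ± 0.10), the reverse of the short group for both. Bhmt (0.44) and Sms (0.34) were higher, with overlap. Leaving out DCP long rat 1 removed the calls of Gnmt (adjusted p = 0.104), Bhmt (0.0875) and Sms, and rat 3 removed those of Gnmt (0.167) and Sms (0.0815), and rat 2 that of Bhmt (0.173). Some marker lists had summed levels in DCP long above all other long rats. They were endothelial (11.66 to 11.78, others up to 11.32), bile duct (8.73 to 9.10, up to 8.65) and leukocyte (7.48 to 7.87, up to 7.31). The other lists overlapped, and the part of the markers in these values was not tested.

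**Figure D4:**
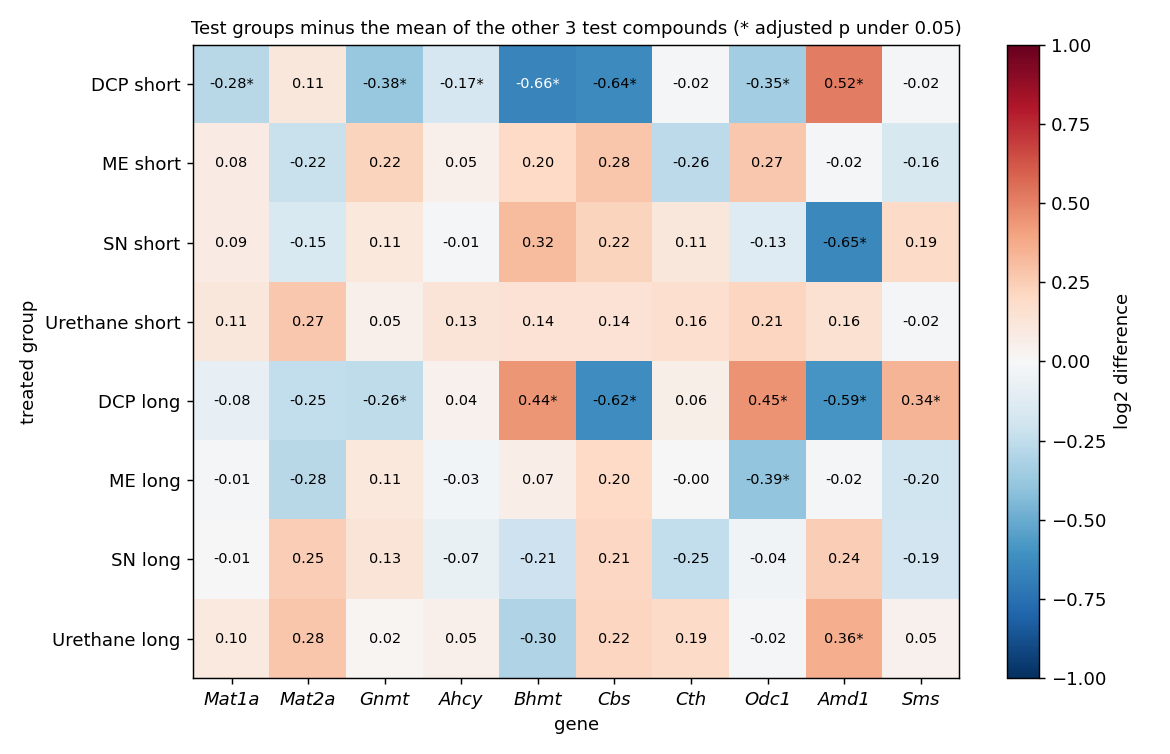
Log2 difference of each test-set group from the mean of the other 3 test compounds at the same duration (colour, with the value in each cell and a star where the adjusted p was under 0.05) for the 10 genes (columns) and 8 groups (rows). The 2 DCP rows hold 7 and 6 stars, and the other 6 rows hold 3 in all, with Amd1 in SN short (-0.65) and Urethane long (0.36) and Odc1 in ME long (-0.39).

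ME, SN and Urethane gave 3 calls between them. The mean that each was set against holds DCP. Of the test-set groups, DCP short had the highest mean Amd1 (9.66) and DCP long the highest mean Odc1 (10.12). In DCP long, Amd1 lay below all other long rats. Amd1 was lower in SN short at 8.75, 8.89 and 8.71, under every other short rat (8.97 to 9.77; -0.65 ± 0.10, adjusted p = 0.000474, 15.1% of all tested genes called). It was higher in Urethane long at 9.69, 9.52 and 9.58 with overlap (0.36 ± 0.10, adjusted p = 0.0178, 14.5% called), a call lost without Urethane long rat 1 (0.115) or 3 (0.0606). Odc1 was lower in ME long at 9.45, 9.56 and 9.45 (-0.39 ± 0.10, adjusted p = 0.0431, 3.29% called). That call was lost on leaving out any ME long rat (0.113 to 0.163), DCP long rat 1 or 3, SN long rat 1 or 3, or any Urethane long rat (0.0535 to 0.0713), with no filter (0.0606) and with every probe set tested on its own (0.0511). No member was called in ME short, SN long or Urethane short (10.0%, 5.87% and 8.54% of all tested genes called in limma). The differences there lay between -0.26 and 0.28. In Urethane long the erythroid list's summed level was 10.59 to 11.80, against at least 12.42 in every other long rat. Its actin 3' minus 5' difference was 2.73 to 2.88, against at most 2.64. In SN short the bile duct list stood above all other short rats (8.31 to 8.51, others up to 8.11). The part of markers and RNA quality in these values was not tested.

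Between the durations of a test compound, Amd1 moved in opposite directions in DCP and SN. It was lower in the long than in the short DCP group by -0.78 ± 0.12 (adjusted p = 5.10e-05, 42.2% of all tested genes called) and higher in the long SN group by 0.72 ± 0.12 (0.00331, 5.32% called). Odc1 rose with DCP by 0.51 ± 0.13 and Sms by 0.52 ± 0.14, whereas Odc1 was lower in the long ME group by -0.58 ± 0.13 (18.3% called). Bhmt was lower in the long groups of SN (-0.79 ± 0.18) and Urethane (-0.73 ± 0.18; 14.8% called), at 11.98 to 12.23 and 11.92 to 12.24 in the long rats. The Bhmt calls were lost without SN short rat 3 (adjusted p = 0.0576) or SN long rat 1 (0.0674), and without Urethane short rat 1 (0.0543) or 2 (0.0523). In ME, Gnmt was lower by -0.39 and Cth higher by 0.40 in the long group. The Gnmt call was lost without ME short rat 2 or ME long rat 2 or 3 (0.0590 to 0.111), and the Cth call without ME short rat 1 or 2 or any ME long rat (0.0569 to 0.169). In a fit of the compared groups alone the Odc1 (0.103), Gnmt (0.113) and Cth (0.199) calls of ME were all lost.

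Over all 10 compounds, 35 of 100 values differed between durations, against 27.0% over all tested genes. Of the 8 clock genes, 8 were called between durations with DL-Ethionine, 7 with Clofibrate, 6 each with 1,4-Dioxane and 3MeDAB and 5 with DCP. With 2-AAF and DEN 2 each were called, with SN 1, and with ME and Urethane 0. The share of all tested genes is given beside each compound's calls. The part of the time of day in these values was not tested. Of the training compounds, 3MeDAB had the largest differences between durations, with 8 of the 10 genes called where 59.3% of all tested genes were. Bhmt was lower in the long group by -3.69 ± 0.28, Gnmt by -2.27, Cbs by -2.07 and Mat1a by -1.91, and Odc1 was higher by 1.39. 2-AAF had 5 calls (35.8% of all tested genes), each lower in the long group, from -0.30 for Ahcy to -1.85 for Bhmt, and the Ahcy call was lost in a fit of the compared groups alone (0.159). DEN had 3 (30.3%), with Mat2a (-0.67), Mat1a (-0.66) and Amd1 (-0.60) lower in the long group. The Mat2a difference of DEN was -0.55 without DEN long rat 1 (adjusted p = 0.0587) and -0.54 without DEN short rat 3 (0.137), and was then not called. 1,4-Dioxane and Clofibrate had 1 each (5.31% and 3.47%), Odc1 lower in the long group by -0.65 and -0.83. The 1,4-Dioxane call had an adjusted p of 0.0498 and was lost without any of its 6 rats and under 5 other alternatives (0.0523 to 0.0601), and the Clofibrate call without Clofibrate short rat 2 (-0.48, adjusted p = 0.271) or Clofibrate long rat 1 (0.0619) and in a fit of the compared groups alone (0.162).

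Across groups, Mat1a, Gnmt, Bhmt and Cbs, a set picked after their values were seen, varied together. Over the 12 treated training groups, as differences from the own control, the 6 pairs of these 4 genes had Pearson correlations of 0.91 to 0.95, and 0.73 to 0.84 over the 11 groups left without 3MeDAB long. Over the 8 test-set groups, as group means, the pairs ranged from 0.30 to 0.90. The points of a set share their 3 control rats, and these values are a description. Over the same 12 groups, the tested genes most like each of them were Gpt2 for Mat1a (0.97), Prodh for Gnmt (0.99), Bbox1 for Bhmt (0.98) and Apmap for Cbs (0.98). Mat2a was most like Gdf15 (0.92), Ahcy like Dmgdh (0.95), Cth like Itpk1 (0.90), Odc1 like Trit1 (0.94), Amd1 like Ubap1 (0.93) and Sms like Nprl2 (0.94). Each is the highest value among all tested genes, so a high correlation was bound to be found. Over the 11 groups without 3MeDAB long these values ranged from 0.81 (Ahcy with Dmgdh) to 0.96 (Gnmt with Prodh), and Bhmt with Bbox1 had 0.90.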

How the data were processed

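Total RNA of rat liver was hybridised to Affymetrix arrays. Values are log2 signals of 31099 probe sets that the authors deposited after RMA, per the series' design text; the version is not given in the sources used here. RMA corrects background, equalises the arrays by quantiles and summarises probes, which narrows differences shared by most genes. Symbols come from GEO's platform annotation: 20826 probe sets name 1 gene, 436 several and 9831 none. A gene is the probe set with the highest mean. Genes above 6.03, the median of the table, in at least 2 arrays of a fit were tested with limma 3.58.1 in R 4.3.3 (lmFit, contrasts.fit, eBayes; two-sided; Benjamini-Hochberg over all genes of a comparison, 0.05). The 41 training arrays (27 residual degrees of freedom) and the 24 test-set arrays (16) were fitted apart, 1 mean per group, with no covariates. The titles call the rats biological replicates, and their number limits the precision. The fits were tested on simulated data.

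Calls of the 10 enzymes are named in every comparison, while uncalled values are given only in part or as a range. From the further pathway genes, those called with the 8 largest differences after DL-Ethionine are named, and for likeness in pattern the nearest gene by Pearson correlation. The enzymes and lists were chosen with earlier results of these data known. Same-numbered rats did not deviate together (median correlation of 0.0057, -0.00058 and -0.0095 in the 3 sets), so the numbers were not taken as pairs. The alternatives tried were other filters, probe set rules, eBayes settings, quantile normalization of all columns, fewer arrays in the fit, a replicate block and leaving out each rat.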

Additional observations from a re-analysis of the deposited data

Results flagged for a closer look

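In the training sets, the short and long groups of a compound differed by the test of the difference itself (limma, adjusted p under 0.05) as follows. All values are long minus short on the log2 scale. The part of the time of day in them was not tested. For Mat1a the values were -0.85 with 2-AAF, -1.91 with 3MeDAB, -0.66 with DEN and -0.48 with DL-Ethionine. For Mat2a they were 0.54 with 3MeDAB, -0.67 with DEN and 1.04 with DL-Ethionine, so that DEN and DL-Ethionine went opposite ways. Gnmt gave -1.20 with 2-AAF, -2.27 with 3MeDAB and -0.68 with DL-Ethionine. Ahcy gave -0.30 with 2-AAF and -0.77 with 3MeDAB but 0.21 with DL-Ethionine. Bhmt gave -1.85 with 2-AAF and -3.69 with 3MeDAB. Cbs gave -1.15 with 2-AAF, -2.07 with 3MeDAB and -0.53 with DL-Ethionine. Cth gave -0.42 with 3MeDAB and 0.95 with DL-Ethionine. The Cth value of 3MeDAB was not called without 3MeDAB long rat 2 or 3 or 3MeDAB short rat 1 (adjusted p of 0.0604 to 0.122), and the Mat2a value of 3MeDAB not without 3MeDAB long rat 1 (0.0595) or 3MeDAB short rat 2 (0.147). Both were also not called in a fit of the compared groups alone (0.0932 and 0.0699). For Odc1 the values were -0.65 with 1,4-Dioxane, -0.83 with Clofibrate, 1.39 with 3MeDAB and 0.90 with DL-Ethionine. Amd1 gave -0.60 with DEN, and Sms gave -0.73 with DL-Ethionine.

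The effects of DL-Ethionine long and of 2 genotoxic compounds, each against its own control, also differed by the test of the difference, in comparisons chosen after the data were seen. DL-Ethionine minus 3MeDAB was 1.29 for Mat1a, 1.36 for Gnmt, 0.83 for Ahcy, 2.83 for Bhmt, 1.08 for Cbs, 1.30 for Cth, 0.60 for Amd1 and -0.57 for Sms. DL-Ethionine minus 2-AAF was 0.32 for Ahcy, 0.76 for Cth, 0.80 for Odc1 and -0.54 for Sms. Groups of 3 rats were not searched for single rats that stand apart.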

How the results depend on the processing

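All 10 calls in DL-Ethionine long kept their direction under every alternative run, and 8 to 10 of them were made when rats were left out in turn. The 1 call in DL-Ethionine short became 0 with no filter on dim genes and 0 with only the compared groups in the fit, and was 0 to 2 on leaving out rats; the cause was not tested. Calls against a control were 24 to 31 on leaving out rats (28 with all rats), within a set at the same duration 54 to 65 (59), and between durations 32 to 39 (35). With the replicate number as a block, although the numbers do not pair the rats, the counts were 1, 10, 27, 58 and 34 in the same order, beginning with DL-Ethionine short and long. The calls lost under that block were Cth in Clofibrate long within its set, Odc1 in 1,4-Dioxane short against control and Odc1 in 1,4-Dioxane long minus short (adjusted p = 0.0545, 0.0529 and 0.0598), and no call was gained under it. Of 134 called values, 82 kept their call under every alternative run, 52 lost it under at least 1, and 0 changed sign. Of 306 uncalled values, 43 gained a call under at least 1: 12 of 92 against a control, 18 of 141 within a set and 13 of 65 between durations. Of these 43, 42 kept their sign; the exception was Sms in DCP short within its set (-0.02, and 0.29 with the mean of its probe sets). Values against a control that were called neither before nor after changed sign 65 times. Quantile normalization of all columns moved the median of all genes in 3MeDAB long from 0.12 to 0.04 and the share of its calls that were higher from 67.1% to 58.1%. That share also moved in 3MeDAB short from 26.7% to 45.4%. Dim probe sets limit Mat2a and Sms to 1 bright probe set each.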
